A study of Mus musculus with 6 samples.

Results

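Ccl2, Ccl7, Ccl8 and Ccl12 are the 4 mouse chemokines grouped as ligands of the receptor Ccr2, and they were taken by symbol from the 20394 genes of a single-cell RNA count table of mouse synovium. All 4 were in the table. The table held 32953 cells, sorted for the leukocyte antigen CD45 from digested knee joints of C57BL/6 mice with antigen-induced arthritis. Every mouse had been immunized with 10 µg of methylated bovine serum albumin (mBSA) in complete Freund's adjuvant, given under the skin, and had received 100 µg of mBSA into the knee on day 21. The 2 PBS samples came from mice injected into the peritoneum with the buffer PBS, and the 4 PEPITEM samples from mice given 300 µg of the PEGylated peptide PEPITEM by that route. Joints were digested with collagenase and then with Collagenase Dispase, for 45 and 30 min, before the sort.

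The cell names carry a library number from 1 to 6, and no source used here ties a number to a PBS or PEPITEM sample. Treatment was therefore not compared, the libraries were not averaged as replicates, and no test was run between them. Values are given over all cells of a class and for the single libraries, and intervals cover counting error only.

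The Ccr2 ligands are small secreted proteins that recruit monocytes. Ccr2 on a monocyte binds them and signals for movement along their gradient, which lets the cell leave the bone marrow and enter inflamed tissue. Ccl2, also called MCP-1, is the best known of them; Ccl7, Ccl8 and Ccl12 are also called MCP-3, MCP-2 and MCP-5. Endothelial glycosaminoglycans hold such chemokines on the vessel wall, and in an inflamed joint macrophages, fibroblasts and mast cells are known sources.

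All 4 genes lie on the plus strand of mouse chromosome 11 (GRCm38, the build called mm10 in the processing notes; GENCODE vM21 annotation). Ccl2 spans chr11:82035571-82037453, Ccl7 chr11:82045712-82047525, Ccl12 chr11:82101845-82103400 and Ccl8 chr11:82115185-82116799, and each has 3 exons in its coding transcript. Ccl11 (eotaxin-1, an eosinophil attractant) lies between Ccl7 and Ccl12. Ccl2 and Ccl7 are thus neighbours at one end, 8258 bases apart, and Ccl12 and Ccl8 neighbours at the other, 11784 bases apart.

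CC chemokines are named for 2 adjacent cysteines. The coding sequence around these codons, from GENCODE, is shown since it marks the 4 genes as one family and shows how far their messages have diverged; the 2 cysteine codons are in capitals.
Ccl2: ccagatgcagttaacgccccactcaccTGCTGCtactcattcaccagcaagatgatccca
Ccl7: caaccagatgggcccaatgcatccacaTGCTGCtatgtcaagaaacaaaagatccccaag
Ccl8: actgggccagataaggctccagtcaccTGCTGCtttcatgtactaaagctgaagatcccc
Ccl12: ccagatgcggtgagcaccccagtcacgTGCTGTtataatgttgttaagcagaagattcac
The whole coding sequences of Ccl7, Ccl8 and Ccl12 were 61.9% to 64.8% identical in pairs. Ccl2, which has the longest reading frame, was 43.5% to 47.4% identical with each of them over the full alignment. These lower percentages count the extra length of Ccl2, with 447 or 448 columns against 294 to 318 for the other pairs. In identical bases the Ccl2 pairs had 195 to 212 and the other pairs 182 to 206. The longest stretch shared by any pair of coding transcripts was 23 bases, between Ccl2 and Ccl7. In the last 300 bases, where a 3′ library is read, it was at most 13 bases.

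Cells were assigned to classes by marker genes that included neither the ligands nor Ccr2, so that a class was not defined by the measured genes. The names below are those of the marker lists, and each class is meant as cells that resemble that type. Of 22 classes, 19 held at least 50 cells. In the 1019 Lyve1 resident macrophage-like cells the median cell had a UMI (a counted RNA molecule) for 6 of the 7 Lyve1-type markers, and in the 181 mast-like cells for all 6 mast markers and none of the 8 general macrophage markers. The 124 fibroblast-like cells showed 6 of 7 fibroblast markers but little of the sorted antigen's own gene, Ptprc. In them Ptprc measured 56.7 counts per 1000000 UMIs of the class (CPM), against 764 CPM over all cells. In the 529 inflammatory macrophage-like cells the median cell had 3 of the 7 inflammatory markers and 4 of the 6 classical monocyte markers. A group of 2766 cells with at least 6 neutrophil and at least 4 macrophage markers, at a median of 25096 UMIs per cell, was kept apart from both classes. Whether these were single cells was not tested. Classical monocyte-like cells were not set apart by this rule. Of them, 36.5% held markers of another lineage, at least 6 neutrophil markers included. The share was 69.2% in monocyte-like cells with cycling markers and 22.1% in the rest. It was 3.21% in the macrophage-like classes, which is not a like measure. Macrophage-like cells with that many neutrophil markers had already been set apart. Of all cells, 4.44% met no gate, and 1080 (3.28%) led their next class by little. The libraries shared 138 of 32815 distinct barcodes. Library totals ran from 47273569 to 123367661 UMIs and median cell depths from 9923 to 14001 UMIs.

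Ccl2 was highest per UMI in mast-like, fibroblast-like and macrophage-like cells. Classical monocyte-like cells, at a lower level, held 22.3% of all Ccl2 UMIs. Lyve1 resident macrophage-like cells held 17.8% and fibroblast-like cells 4.17%. The cells with neutrophil and macrophage markers, described at the end, held a larger share than any of these. The Ccl2 level was 2780 CPM in mast-like cells (exact Poisson 95% interval 2680 to 2883) and 2733 CPM in fibroblast-like cells (2662 to 2806), intervals that overlapped. Lyve1 resident macrophage-like cells followed at 1839 CPM, and 69.9% of them had a Ccl2 UMI. The other macrophage classes were lower. Inflammatory macrophage-like cells, defined by genes such as Arg1, Spp1 and Cxcl9, had 648 CPM. Macrophage-like cells without a subtype had 599 CPM and Fxyd2 macrophage-like cells 531 CPM.

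Classical monocyte-like cells, the main Ccr2-bearing cells of blood, came next with 321 CPM. In dendritic, lymphoid, nonclassical monocyte-like and neutrophil-like classes of at least 50 cells Ccl2 stayed under 50 CPM. Neighbours in this order were not separated by the spread over libraries. Libraries with at least 20 cells gave 2160 to 3593 CPM in mast-like, 1857 to 3556 CPM in fibroblast-like and 701 to 2858 CPM in Lyve1 resident macrophage-like cells, and 251 to 1428, 244 to 1085 and 376 to 716 CPM in the inflammatory, unassigned and Fxyd2 classes.

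**Figure D1:**
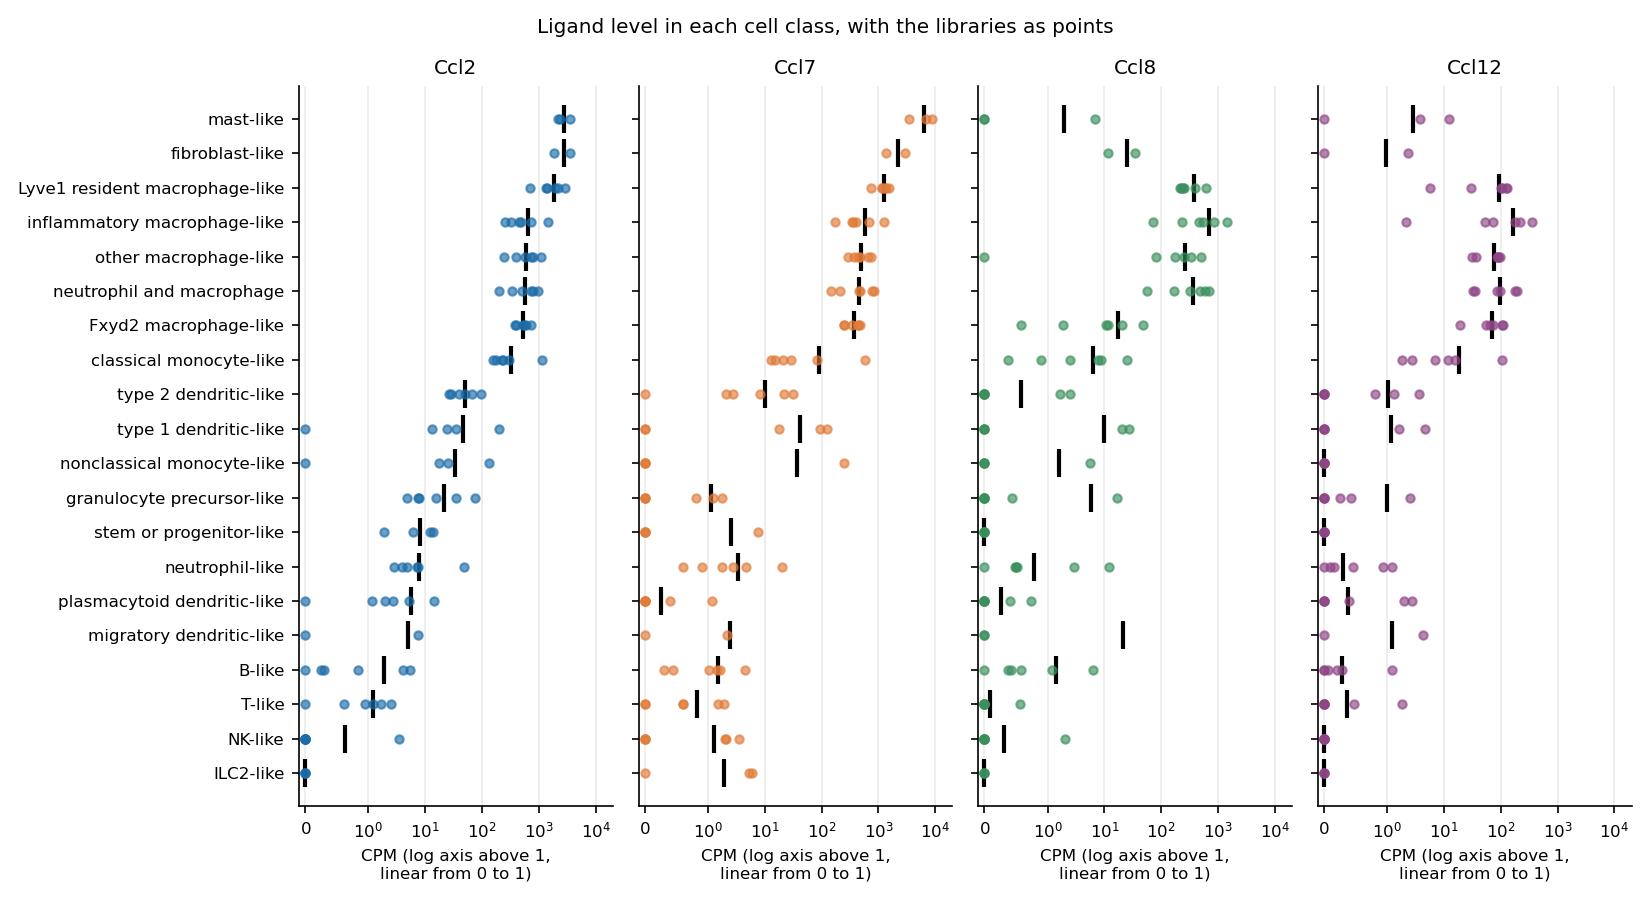
Level of each ligand in each cell class of at least 50 cells and in the cells with neutrophil and macrophage markers, in CPM on a log axis that is linear from 0 to 1. Black ticks are the level over all cells of the class and points are libraries with at least 20 cells of it. Ccl2 and Ccl7 reach over 1000 CPM in mast-like, fibroblast-like and Lyve1 resident macrophage-like cells. Ccl8 and Ccl12 are highest in macrophage-like classes and near 0 in mast-like cells, but Ccl8 is only 17.1 CPM in Fxyd2 macrophage-like cells.

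Ccl7 was also highest per UMI in these classes, with mast-like cells far ahead. It measured 6374 CPM in mast-like cells (6222 to 6529), 2189 CPM in fibroblast-like cells and 1257 CPM in Lyve1 resident macrophage-like cells. CPM is relative to depth, and the median cell had 4461 UMIs in the mast-like class and 14721.5 in the fibroblast-like class. In counts, 181 mast-like cells gave 6676 Ccl7 UMIs and 124 fibroblast-like cells gave 4442. The lead is thus one per UMI and not one shown per cell. The mast-like range, 3444 to 8787 CPM, lay above the fibroblast-like range of 1329 to 2982 CPM, which came from 2 libraries. The fibroblast-like range overlapped the Lyve1 range of 732 to 1525 CPM. Inflammatory, unassigned and Fxyd2 macrophage-like cells had 580, 487 and 368 CPM, again with overlapping library ranges. Classical monocyte-like cells had 91.3 CPM of Ccl7, and 9.28% of them had a UMI, against 48.4% for Ccl2. Monocyte-like cells were thus often positive for Ccl2 and seldom for Ccl7.

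Ccl8, known in the mouse also as a ligand of Ccr8, had another distribution. It was highest in inflammatory macrophage-like cells, at 679 CPM (663 to 696), followed by Lyve1 resident macrophage-like cells at 378 CPM and unassigned macrophage-like cells at 264 CPM, with library ranges that overlapped. Library 1 decided the size of the first value, which was 450 CPM without it. In Leiden clusters the order was another: the cluster with 82.8% of the inflammatory macrophage-like cells, 2338 cells in all, had 225 CPM of Ccl8, below the 277 and 1644 CPM of the clusters named Lyve1 resident macrophage. Fxyd2 macrophage-like cells had 17.1 CPM and fibroblast-like cells 25.1 CPM. Mast-like cells gave 2 Ccl8 UMIs in all, where they gave 6676 of Ccl7.

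Over all cells of a class, Ccl12 was highest in macrophage-like classes, at lower levels. It measured 161 CPM in inflammatory (154 to 169), 92.8 CPM in Lyve1 resident, 77.2 CPM in unassigned and 70.2 CPM in Fxyd2 macrophage-like cells, with overlapping library ranges. Classical monocyte-like cells had 18.2 CPM over all libraries and 105 CPM in library 1. Mast-like cells gave 3 UMIs and fibroblast-like cells gave 2, so that Ccl12 was at or under 3 counts in both.

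Cells that should lack these genes set the background. Of B-like cells, 0.676% had a Ccl2 UMI, 0.498% a Ccl7 UMI, 0.249% a Ccl8 UMI and 0.16% a Ccl12 UMI, at a median of 5767 UMIs per cell. In T-like cells, at a median of 9216 UMIs, the Ccl2 share was 1.26%. Mast-like cells were shallower than either, at 4461 UMIs, yet 89.5% had a Ccl2 UMI and 89.5% a Ccl7 UMI. Their Ccl8 share was 1.1% and rested on 2 cells, with a Wilson 95% interval of 0.304% to 3.94% that overlapped the B-like interval of 0.148% to 0.418%. The deposited table also keeps stored zeros, read here as entries emptied by the ambient-RNA correction, which made up 82.3% of the Ccl2 entries of B-like cells and 1.25% of those of Lyve1 resident macrophage-like cells.

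Shares were mostly lower at equal depth. With every cell thinned to 3000 UMIs, 61.4% of Lyve1 resident macrophage-like cells had a Ccl2 UMI and 52.4% a Ccl7 UMI, against 14.6% for Ccl8 and 8.08% for Ccl12. In inflammatory macrophage-like cells the thinned shares were 42.4%, 36.2%, 15.4% and 16.1% for Ccl2, Ccl7, Ccl8 and Ccl12, from 64.7%, 51%, 25.3% and 28.4% before thinning. Thinning left out 58 of the 181 mast-like cells as too shallow, and 89.4% of the others had a Ccl2 UMI.

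The UMIs of 3′ libraries count molecules whatever their length, so gene length does not enter the mix of the 4 ligands within a class. Whether the ligands are captured and counted alike was not tested. Ccl7 supplied 69.6% of the ligand UMIs of mast-like cells and Ccl2 30.4%. In fibroblast-like cells Ccl2 supplied 55.2% and Ccl7 44.2%, and in Lyve1 resident macrophage-like cells 51.6% and 35.2%, with 10.6% from Ccl8. Over all libraries, inflammatory macrophage-like cells were the class with the most even mixture, 31.3% Ccl2, 28% Ccl7, 32.9% Ccl8 and 7.8% Ccl12. Single libraries differed widely from this, with 14.5% to 48.4% Ccl8, 18.5% to 50.4% Ccl2 and 0.426% to 10.3% Ccl12. Classical monocyte-like cells carried mostly Ccl2, at 73.5% over all libraries, with 62.5% in library 1 and 74.1% to 92.4% in the others.

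**Figure D2:**
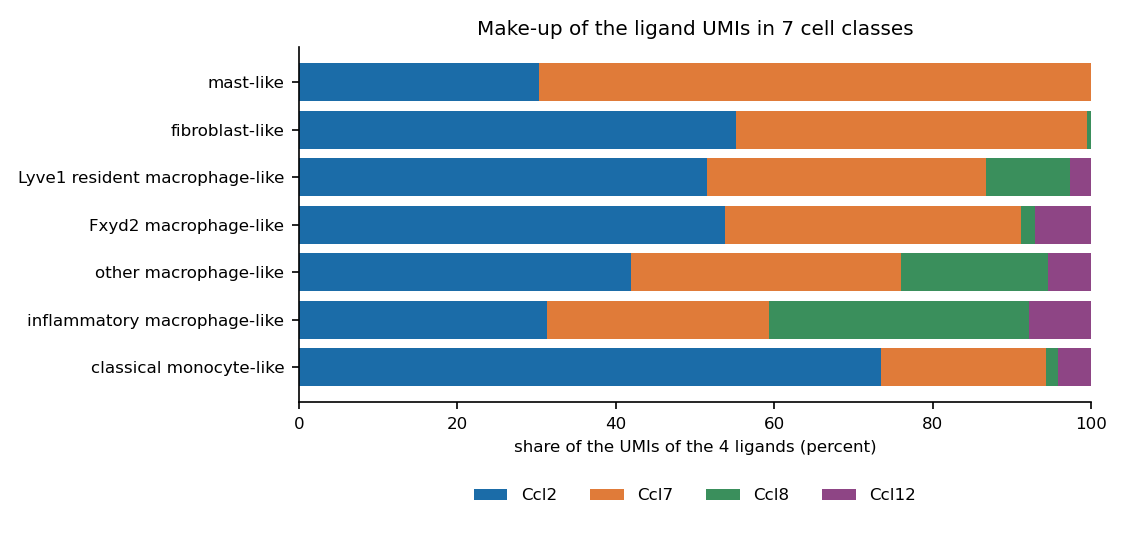
Share of each ligand among the UMIs of the 4 ligands, in percent, in 7 cell classes over all libraries. Ccl7 makes up 69.6% in mast-like cells, Ccl8 32.9% in inflammatory macrophage-like cells and Ccl2 73.5% in classical monocyte-like cells.

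The ratio of Ccl7 to Ccl2 separated mast-like cells from macrophage-like and monocyte-like cells in each library that could be compared. In the 3 libraries with at least 20 mast-like cells, they had 2.45, 1.59 and 2.93 Ccl7 UMIs per Ccl2 UMI. The same ratio lay between 0.533 and 1.04 over the 6 libraries in Lyve1 resident macrophage-like cells and between 0.614 and 0.826 in Fxyd2 macrophage-like cells. It came nearer to the mast-like values in inflammatory macrophage-like cells, at 0.683 to 1.24, and in unassigned macrophage-like cells, at 0.602 to 1.2. The value of 1.24 was from library 4, where mast-like cells had 1.59. Classical monocyte-like cells stood at the other end, from 0.066 to 0.5, and the ranges of these macrophage-like and monocyte-like classes did not meet the mast-like range.

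For contrasts between classes, a gene was called when its CPM differed at least 2-fold the same way in every library with at least 20 cells of both classes, among genes of at least 10 CPM in either class. All 4 ligands passed that minimum in each contrast below. The percentages called over all genes are given beside the calls as a background, and the calls are descriptions without a test.

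The ligands did not go the same way in mast-like cells against Lyve1 resident macrophage-like cells. Ccl7 was called higher, at 3.05 to 6.41-fold over the 3 libraries, where 9.34% of all genes tested were called higher. Ccl8 and Ccl12 were called lower, where 9.55% of genes were, and both were at or under 3 counts in mast-like cells in each of the 3 libraries, so the size is a bound. Set to 3 counts, Ccl8 came to at most 0.0448-fold and Ccl12 to at most 0.35-fold in these libraries. Ccl2 was not called, at 0.834 to 1.63-fold.

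In mast-like cells Ccl2 measured 3593, 2160 and 2384 CPM in libraries 1, 4 and 5, and Ccl7 measured 8787, 3444 and 6985 CPM. The other 3 libraries held 13 to 17 mast-like cells each and gave 2007 to 3488 CPM of Ccl2 and 3606 to 8080 CPM of Ccl7. Across the 6 libraries, mast-like Ccl2 was thus never below 2007 CPM and Ccl7 never below 3444 CPM.

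Fibroblast-like cells could be set against Lyve1 resident macrophage-like cells in 2 libraries. Ccl8 was called lower, at 0.0478 and 0.138-fold, and Ccl12 was called lower too with at most 3 counts in fibroblast-like cells, where 16.9% of all genes tested were called lower. Ccl2 and Ccl7 were both higher in fibroblast-like cells in library 1, at 1.62 and 2.17-fold, and both lower in library 5, at 0.65 and 0.872-fold. In library 1 fibroblast-like cells had 3556 CPM of Ccl2 and 2982 CPM of Ccl7, and in library 5 they had 1857 and 1329 CPM.

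Lyve1 resident macrophage-like cells were higher than classical monocyte-like cells for Ccl7, by 2.4 to 101-fold over the 6 libraries, and for Ccl8, by 24.8 to 1033-fold, where 10.1% of genes tested were called higher and 4.9% lower. Ccl2 was higher in 6 of 6 libraries but under 2-fold in 1 of them (1.93 to 12.1-fold), and Ccl12 was higher in 5 of 6. Inflammatory macrophage-like cells were called higher than classical monocyte-like cells for the same 2 ligands, Ccl7 by 2.18 to 26.3-fold and Ccl8 by 34.3 to 1444-fold, where 2.62% of genes tested were called higher. The monocyte-like levels behind the largest Ccl8 folds were below 1 CPM.

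Among macrophage classes, Ccl8 differed between the Fxyd2 and Lyve1 gates, which overlapped in their markers. The median cell of either class had 3 of the 6 Fxyd2 markers. Of the 7 Lyve1-type markers it had 2 in the Fxyd2 class and 6 in the Lyve1 class. The same Leiden cluster held 51.7% of the Fxyd2 and 84% of the Lyve1 resident macrophage-like cells. Fxyd2 macrophage-like cells had 0.579 to 47.6 CPM of Ccl8 over the libraries, and Lyve1 resident macrophage-like cells 212 to 609 CPM, without overlap, and the call was 0.00752 to 0.0913-fold. The lowest Fxyd2 library was at or under 3 counts. Ccl7 was called lower too, at 0.193 to 0.387-fold, where 0.611% of all genes tested were called lower. Ccl2 was lower in 6 of 6 libraries, at 0.203 to 0.536-fold, and Ccl12 was higher in 3 of 6, so neither was called.

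Inflammatory against Lyve1 resident macrophage-like cells gave no call among the ligands. The share of all genes called is not given for this contrast, so the lack of calls was not read as a result. Ccl2 and Ccl7 were lower in inflammatory cells in 6 of 6 libraries, with median folds of 0.285 and 0.335. Ccl8 was higher in 5 of 6, with a median fold of 1.39 and a range of 0.34 to 5.68. Ccl12 was higher in 3 of 6.

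Library 1 had the highest Ccl2 and Ccl7 in classical monocyte-like cells. Its 527 such cells had 1141 CPM of Ccl2, where the other 5 libraries had 225, 298, 174, 237 and 157 CPM for libraries 2 to 6. Ccl7 measured 571 CPM in library 1 and 14.9, 82.7, 20.6, 28.5 and 12.8 CPM in libraries 2 to 6. Library 1 had the highest value of the 6 for both genes; whether it differs beyond the spread between samples cannot be tested with these libraries.

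Ccl12 was highest in library 1 too, with 105 CPM in library 1 and 2.7, 11.9, 15.6, 6.98 and 1.83 CPM in libraries 2 to 6. Ccl8 did not: it was highest in library 4, at 24.6 CPM, with 8.84 CPM in library 1. Without library 1, the monocyte-like levels were 209.8 CPM for Ccl2, 26 CPM for Ccl7 and 6.32 CPM for Ccl12, in place of 321, 91.3 and 18.2 CPM. The Ccl8 level of 6.4 CPM fell to 4.15 CPM without library 4 and to 1.35 CPM under a stricter gate. Without monocyte-like cells that held markers of another lineage, the levels were 368 CPM for Ccl2, 98 CPM for Ccl7, 6.07 CPM for Ccl8 and 25.4 CPM for Ccl12.

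Some monocyte-like cells also carried UMIs of the complement genes C1qa, C1qb or C1qc, which mark macrophages. Leaving these cells out, library 1 still had 1019 CPM of Ccl2, 579.9 CPM of Ccl7 and 85.3 CPM of Ccl12, and the other libraries had 154 to 224, 11.2 to 26.3 and 0.976 to 7.74 CPM. Of all monocyte-like cells, 30.5% were cycling by marker genes, and those had 205 CPM of Ccl2 and 16.8 CPM of Ccl7, against 400 and 142 CPM in the cells that were not. Among the latter, library 1 had 1271 CPM of Ccl2 and the 5 other libraries together had 220.1 CPM.

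In inflammatory macrophage-like cells library 1 was highest for all 4 ligands. Its 128 cells had 1428 CPM of Ccl2, 1246 CPM of Ccl7, 1431 CPM of Ccl8 and 359 CPM of Ccl12. Library 2 was lowest for all 4, with 251, 173, 72.1 and 2.12 CPM from 51 cells. The remaining libraries lay between, from 324 to 718 CPM for Ccl2 and from 228 to 845 CPM for Ccl8. Without library 1, the class had 409 CPM of Ccl2, 376 CPM of Ccl7, 450 CPM of Ccl8 and 101 CPM of Ccl12.

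In Lyve1 resident macrophage-like cells library 1 was not the highest for any ligand. Ccl2 measured 2201, 701, 1407, 1354, 2858 and 1901 CPM in libraries 1 to 6, and Ccl7 1371, 732, 1141, 1130, 1525 and 1299 CPM. Library 2 was lowest for both and held 26 of these cells. Ccl8 was highest in library 4, at 609 CPM against 212 to 386 CPM in the others, and Ccl12 ranged from 5.65 CPM in library 2 to 127 CPM in library 6.

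**Figure D3:**
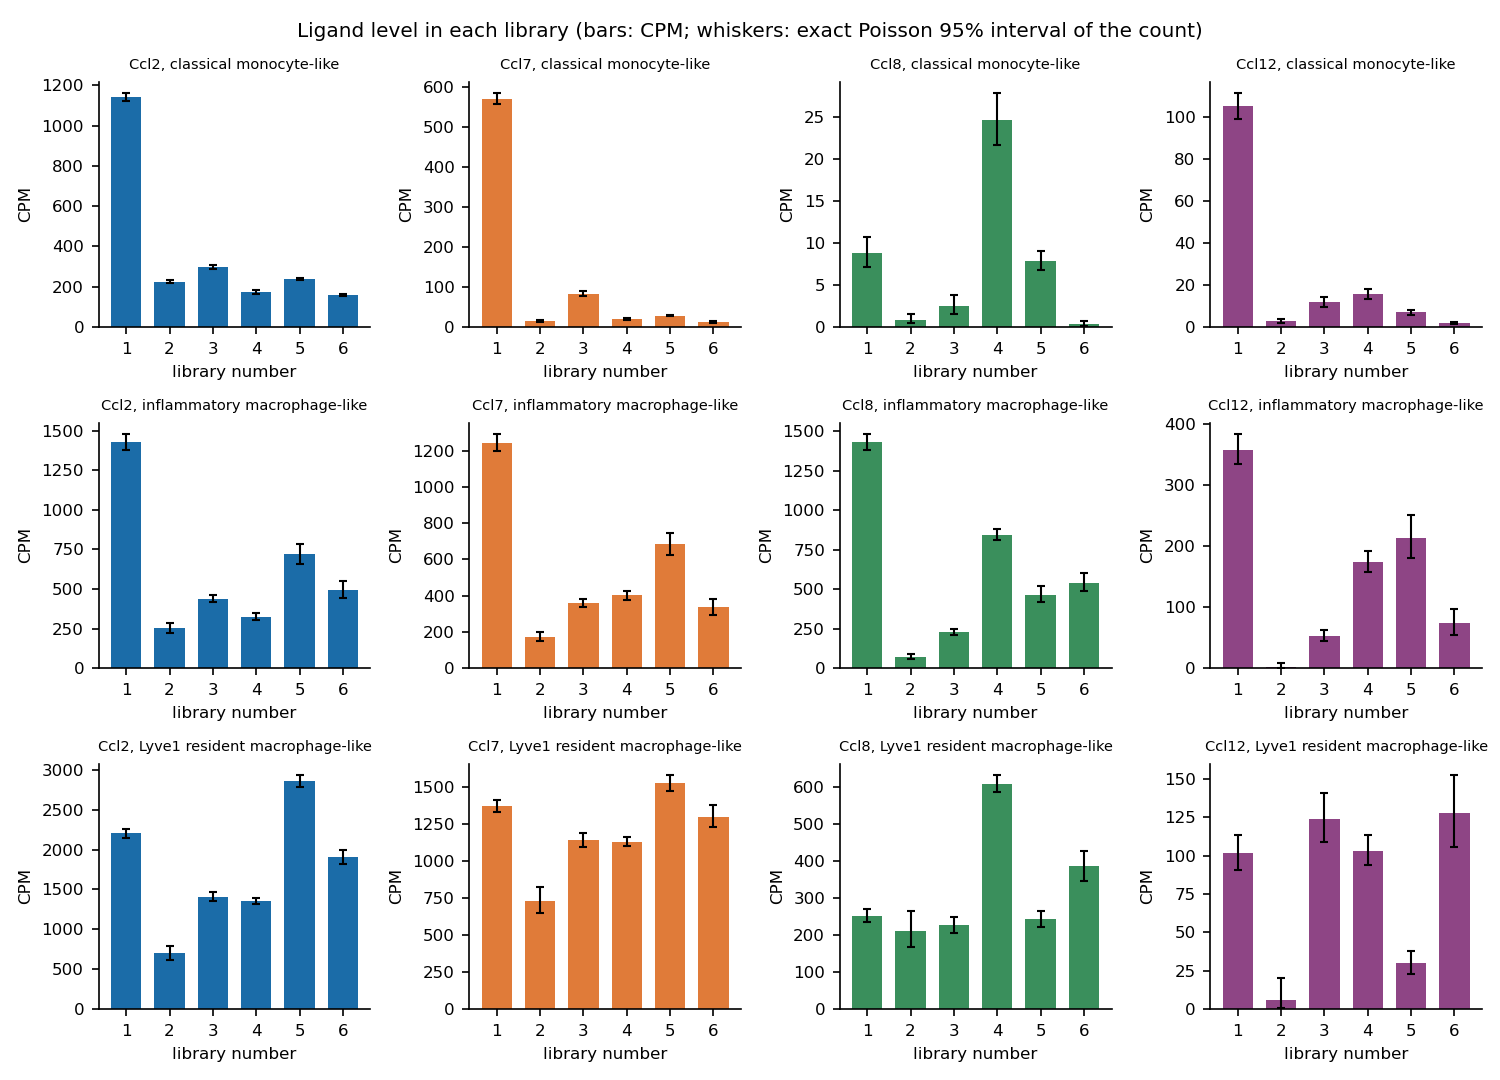
CPM of each ligand in each of the 6 libraries for classical monocyte-like, inflammatory macrophage-like and Lyve1 resident macrophage-like cells, with exact Poisson 95% intervals of the count as whiskers. Library 1 is above the others for Ccl2, Ccl7 and Ccl12 in monocyte-like cells and for all 4 ligands in inflammatory macrophage-like cells, but for none in Lyve1 resident macrophage-like cells.

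The ligands were concentrated in some of the cells of a class. The 10% of inflammatory macrophage-like cells with the most Ccl8 held 93.8% of their Ccl8 UMIs, and positive cells had 50.5 UMIs each on average. In Lyve1 resident macrophage-like cells the top 10% held 95.2% of the Ccl8 and 97.7% of the Ccl12 UMIs, but 52.6% of the Ccl2 UMIs. Mast-like cells were the most even, with 41.4% of Ccl2 and 36.1% of Ccl7 UMIs in the top 10%.

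At least 1 ligand was detected in 2300 of the 3212 cells of the 4 macrophage-like classes, or 71.6% (Wilson 95% interval 70% to 73.1%). Of these 3212 cells, 23.4% had a single ligand, 30.9% had 2, 12.5% had 3 and 4.79% had all 4. Of mast-like cells 81.2% had exactly 2 ligands, and 151 of the 181 had both Ccl2 and Ccl7. Of classical monocyte-like cells 41% had a single ligand and 6.93% had 2.

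Ligands were detected together more often than independent detection would give. Over the 4 macrophage-like classes, Ccl2 and Ccl7 were together in 1380 cells against 976.7 expected, a ratio of 1.41 that ranged from 1.29 to 1.77 over the libraries. The median ratio over the 6 pairs was 1.43, from 1.3 to 1.65 in single libraries. Ccl8 with Ccl12, the neighbours at the other end of the gene cluster, had the highest ratio of the 6, 2.41 (184 cells against 76.3 expected, 1.55 to 3.25 over libraries). These ratios rose with thinning to 3000 UMIs per cell, to 1.69 for Ccl2 with Ccl7 and 3.41 for Ccl8 with Ccl12. Such a ratio cannot exceed the inverse of the larger detection share of its pair. Ccl2 was detected in 61.7% of these cells and Ccl7 in 49.3%, against 16% for Ccl12. The ceiling is therefore higher for rarer ligands and rises with thinning, so the order of the pairs was not read as a result.

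Correlation over cells was highest for Ccl2 with Ccl7. Over the 3212 macrophage-like cells, Pearson's r of log counts per 10000 was 0.74 for this pair, 0.32 for Ccl7 with Ccl12, 0.28 for Ccl8 with Ccl12, and 0.14 for Ccl2 with Ccl8. In inflammatory macrophage-like cells alone, r was 0.55 for Ccl7 with Ccl12, 0.47 for Ccl2 with Ccl12 and 0.21 for Ccl8 with Ccl12. These cells share libraries and depth, and r was not computed at equal depth. It also depends on the detection shares of the pair, so the values are descriptions. Of the macrophage-like cells with Ccl7, 87.2% also had Ccl2, and of those with Ccl2, 69.6% had Ccl7. Ccl12-positive cells were mostly Ccl2-positive as well, at 85.8%.

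**Figure D4:**
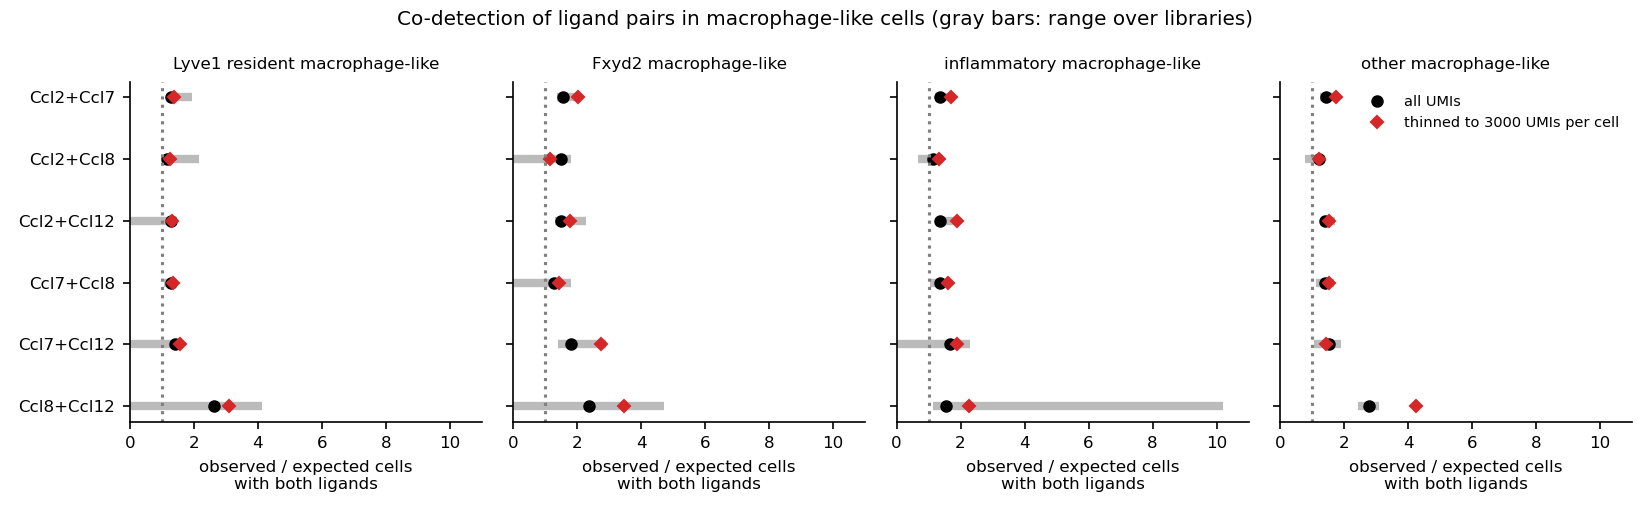
Cells with both ligands of a pair, as a ratio to the number expected if the 2 were detected independently, in the 4 macrophage-like classes. Black points use all UMIs, red diamonds cells thinned to 3000 UMIs, gray bars the range over libraries, and the dotted line is a ratio of 1. Ccl8 with Ccl12 is highest in 4 of the 4 classes after thinning, from 2.27 to 4.26, resting on 3 cells in the Fxyd2 class. With all UMIs, Ccl7 with Ccl12 is higher in inflammatory macrophage-like cells, at 1.68 against 1.55. The ratio has a ceiling that is lower for ligands detected in more cells.

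The genes whose levels over classes ran most like each ligand parted Ccl2 and Ccl7 from Ccl8 and Ccl12. Over the 19 classes, with Pearson's r of log2(CPM + 1) among 12275 genes, the nearest gene to Ccl2 was Ccl7 (0.96). Next came Gm17268 (0.95), Rusc2 (0.93), the nuclear noncoding RNA Neat1 (0.93) and Slc35e4 (0.92). Ccl7 had Ccl2, Ahnak2 (0.95), Rusc2 (0.93), the immediate-early factor Egr2 (0.93) and the myelin protein gene Pmp22 (0.92). Ccl8 was nearest to C1qc (0.91), C1qb (0.9) and C1qa (0.9), the 3 chains of complement C1q, then to the efferocytosis receptor Mertk (0.87) and Cstb (0.87). Ccl12 was nearest to the complement receptor C3ar1 (0.97), C1qa (0.95), the sialic acid receptor Siglec1 (0.94), C1qc (0.94) and Ms4a7 (0.94). C1qa, C1qb and C1qc were among the markers that defined the macrophage classes.

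Gm17268, a gene model on the minus strand, covers the whole of Ccl2, all 813 exon bases included. It gave 73.8 CPM in Lyve1 resident macrophage-like cells, 122 CPM in fibroblast-like cells and 70.7 CPM in mast-like cells, and its UMIs amounted to 2.54% to 5.31% of those of Ccl2 in the macrophage, mast, fibroblast and monocyte classes. Of its positive cells, 79.9% to 97.6% also had Ccl2 in these classes. In mast-like cells this share was 86.7%, no higher than the 89.5% of all mast-like cells with Ccl2. The r with Ccl2 over cells was -0.03 there, against 0.3 to 0.58 in the other classes of this set. The kit marks strand, but the strand setting of the counting is not given in the sources used here, so that reads of the 2 genes may not be told apart.

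Within the macrophage-like cells Ccl2 and Ccl7 shared most of their nearest genes, and Ccl8 and Ccl12 had others, among 11103 genes with a UMI in at least 2% of the cells. Ccl2 had Ccl7 (r = 0.74), Marcksl1 (0.42), AI607873 (0.42), Rgl1 (0.39) and Plek (0.38), and Ccl7 had Marcksl1 (0.37), AI607873 (0.36), Rgl1 (0.35) and heme oxygenase Hmox1 (0.32) after Ccl2. Ccl8 had the fatty acid binding protein Fabp5 (0.29), the interferon-induced GTPase Iigp1 (0.28), Aoah (0.28), Ccl12 (0.28) and cathepsin B, Ctsb (0.27). Ccl12 had 2 interferon-response genes in front, Irf7 (0.33) and Isg15 (0.33), then the Fc receptor Fcgr1 (0.33), Ccl7 (0.32) and Ly6e (0.31). Fabp5 and Ctsb were gate markers.

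For Ccl8 and Ccl12, the pair found in macrophage-like and not in mast-like cells, RefSeq promoter sequences were at hand (GRCm38.p6). The 250 bases before each start site are shown, on the plus strand, with the motifs found in capitals.
Ccl8, chr11:82114935-82115184: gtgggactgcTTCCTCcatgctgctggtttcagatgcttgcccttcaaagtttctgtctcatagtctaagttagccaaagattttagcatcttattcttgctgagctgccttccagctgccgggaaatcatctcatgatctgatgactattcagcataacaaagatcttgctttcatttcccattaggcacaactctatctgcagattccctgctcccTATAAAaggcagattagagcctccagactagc
Ccl12, chr11:82101595-82101844: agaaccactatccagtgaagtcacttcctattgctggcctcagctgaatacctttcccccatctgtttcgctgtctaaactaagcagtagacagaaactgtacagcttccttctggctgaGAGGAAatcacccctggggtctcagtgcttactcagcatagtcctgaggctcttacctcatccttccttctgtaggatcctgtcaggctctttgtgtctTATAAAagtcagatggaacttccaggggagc
Both hold the TATA box TATAAA, starting 32 and 31 bases before the start site, which 12.4% of 32851 promoters of this length hold on either strand. Both hold the core GAGGAA of the myeloid factor PU.1, on the minus strand in Ccl8 and the plus strand in Ccl12, as do 23.3% of promoters. The letters of the AP-1 site TGANTCA, the STAT site TTCNNNGAA, the interferon response element and the NF-kappaB site were searched on both strands and are not in these windows; 6.75%, 7.02%, 2.98% and 7.97% of promoters hold them. None of the motifs overlapped another.

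The receptor Ccr2 had a pattern of its own. It was highest in classical monocyte-like cells, at 695 CPM with 672 to 728 CPM over the libraries, and 98.2% of these cells had a UMI. Fxyd2 and inflammatory macrophage-like cells had 434 and 389 CPM, and Lyve1 resident macrophage-like cells, with the most Ccl2 of the macrophage classes, had 145 CPM (52 to 263 CPM). Type 2 dendritic-like, NK-like and ILC2-like cells had 266, 269 and 261 CPM, and T-like cells 145 CPM. Mast-like and fibroblast-like cells had 18.1 and 18.2 CPM, and neutrophil-like cells 8.9 CPM.

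Ligand-bearing and Ccr2-bearing cells overlapped in part. In classical monocyte-like cells thinned to 3000 UMIs, Ccr2 was detected in 80.5% of the cells with a Ccl2 UMI and 81.9% of those without. In Lyve1 resident macrophage-like cells the thinned shares were 16.2% and 12.2% for Ccl2, and 32.9% and 13.1% for cells with and without Ccl12. In Fxyd2 macrophage-like cells Ccr2 was in 66% of the thinned cells with Ccl12 and 43.9% of those without, and in inflammatory macrophage-like cells in 52.7% and 57.5%.

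Other receptors and decoys of the family were measured as well. Ccr1, a receptor that Ccl7 can engage, was highest in neutrophil-like cells among the marker classes, at 333 CPM. Ccr8, the receptor of mouse Ccl8, was at 120 CPM in ILC2-like cells and at or under 5.9 CPM in the other classes of at least 50 cells. The decoys Ackr1, Ackr2 and Ackr4 were at 26.6, 9.36 and 10.3 CPM in fibroblast-like cells, and Ackr1 at 13.4 CPM in mast-like cells.

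**Figure D5:**
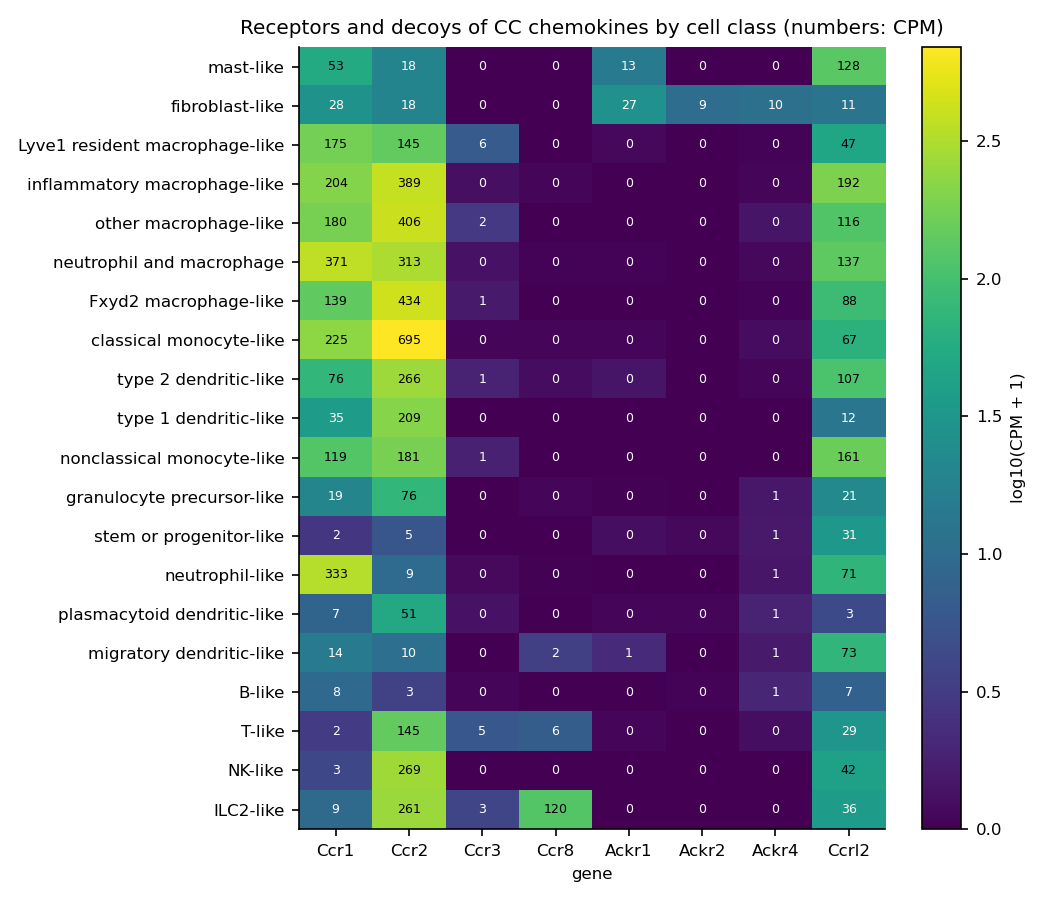
Level of CC chemokine receptors and decoys in each cell class, as log10(CPM + 1) in color with the CPM printed. Ccr2 is highest in classical monocyte-like cells at 695 CPM, Ccr1 is 333 CPM in neutrophil-like cells, and Ccr8 is 120 CPM in ILC2-like cells.

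Of 12 other CC ligands, Ccl11 was the gene closest to the 4 on the chromosome. It measured 135 CPM in fibroblast-like cells and under 1 CPM in mast-like, macrophage-like and monocyte-like cells. Ccl24 (eotaxin-2) was at 447 CPM in Lyve1 resident macrophage-like cells and 49.9 CPM in Fxyd2 cells. Of 5 such ligands tested, Ccl3, Ccl9 and Ccl24 were called lower in mast-like than in Lyve1 resident macrophage-like cells, where 9.55% of all genes were called lower.

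Counts over the gene lists are given for 2 of the contrasts. Against classical monocyte-like cells, Lyve1 resident macrophage-like cells were higher for 3 of 16 regulators of the NF-kappaB, AP-1 and STAT type (Nfkb1, Nfkbiz and Fosb), with none lower and a median log2 fold of 0.90 against 0.05 over all genes tested, of which 10.1% were called higher and 4.9% lower. Of 10 upstream cytokine receptors, Csf1r, itself a gate marker, was higher and none was lower (median log2 fold -0.11). Ccr2 was called lower, and of the 12 other ligands, 6 were tested and Ccl24 was higher (median 0.23). Of 5 glycosaminoglycan carriers, proteins that can hold chemokines, 4 were tested and Sdc4 was higher (median 1.06).

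Mast-like against Lyve1 resident macrophage-like cells gave 5 of 16 regulators higher (Nfkbiz, Tnfaip3, Jun, Fos and Fosb) and Irf1 lower, with a median log2 fold of 0.34 against -0.09 over all genes tested, of which 9.34% were called higher and 9.55% lower. Jun, Fos and Fosb, and Junb, are also in the digestion list. Tnfaip3, a feedback inhibitor of NF-kappaB, measured 2080 and 190.3 CPM in the 2 classes over the 3 libraries compared. Of the upstream cytokine receptors, none of 10 was higher and Tnfrsf1a, Il4ra and Csf1r were lower (median -0.96). Ccrl2, a decoy-like receptor, was called higher and Ccr2 lower, and of 5 other ligands tested, none was higher and 3 were lower (median -4.06). Srgn, the proteoglycan of secretory granules, was higher and Sdc3 and Sdc4 were lower among 4 carriers tested (median -1.77).

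Genes known to respond to tissue digestion were also high in the classes with the most Ccl2 and Ccl7. The 12 genes of that list summed to 27042 CPM in mast-like, 12607 CPM in Lyve1 resident macrophage-like and 11769 CPM in fibroblast-like cells. The sum was 6768 CPM in inflammatory macrophage-like, 5614 CPM in classical monocyte-like and 2206 CPM in B-like cells. The order did not follow the ligands throughout. Fxyd2 and unassigned macrophage-like cells had 8280 and 7772 CPM of the list, above inflammatory macrophage-like cells, which had more Ccl2 and Ccl7. Nonclassical monocyte-like and ILC2-like cells had 7965 and 6263 CPM, above classical monocyte-like cells, though both were low in Ccl2. In mast-like against Lyve1 resident macrophage-like cells, 6 of the 12 were higher and 1 lower (median log2 fold 0.96), where 9.34% of all genes were called higher and 9.55% lower. In Lyve1 resident macrophage-like against classical monocyte-like cells 5 were higher and none lower (1.26), where 10.1% of all genes were called higher. Over the 3212 macrophage-like cells, the summed list had r = 0.28 with Ccl2 and 0.21 with Ccl7, but 0.01 with Ccl8 and 0.04 with Ccl12. In mast-like cells r was 0.45 with Ccl2, and in fibroblast-like cells -0.36. In classical monocyte-like cells the list summed to 6283 CPM in library 1 and 4518 to 6039 CPM in the others. The part of digestion in these levels was not tested.

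The 2766 cells with neutrophil and macrophage markers held 33.2% of all Ccl2, 39% of all Ccl7, 64% of all Ccl8 and 52.6% of all Ccl12 UMIs in the table. Their levels, 567, 454, 367 and 96.5 CPM, lay within the range of the macrophage-like classes, and neutrophil-like cells themselves had 7.6, 3.36, 0.778 and 0.302 CPM.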

How the data were processed

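Synovial CD45+ cells of 2 PBS and 4 PEPITEM samples were profiled with droplet 3′ single-cell RNA sequencing. The authors aligned reads to mm10 with Cell Ranger (7 in the processing notes), removed ambient RNA with SoupX and doublets with DoubletFinder, filtered cells with Seurat and deposited 1 pooled table of whole UMI counts per gene and cell. The annotation release and strand setting are not given in the sources used here. Doublets were not called again. Stored zeros, 1724738 in all, were read as entries emptied by the ambient correction.

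Here, each cell was scored on marker lists as the mean over markers of the log count per 10000, capped at 1 after division by its 95th percentile in positive cells. A class needed 3 markers or 50% of its list, whichever was more, and a lead of 0.05 (stricter gate, 0.15). Macrophage subclasses needed 2 markers. The gate rule was set on these data, and the genes and lists were chosen with earlier results of these data known. Named genes were the 4 ligands, the fixed lists (1 receptor is not reported here) and the 5 nearest genes by Pearson's r. Levels are CPM with exact Poisson intervals and shares have Wilson intervals (95%). Cells were thinned to 3000 UMIs with seed 0. Library values needed 20 cells and classes 50. The contrast rule was tried on simulated counts with Poisson error only, so its behaviour under the spread of these data was not tested. Alternatives were a stricter gate, Leiden clusters (resolution 1), exclusion of cells with other lineages' markers, library medians, capping at the 99th percentile, at least 2 UMIs, and leaving out each library. Python 3.11.15, NumPy 2.4.6, SciPy 1.17.1, pandas 2.3.3, Scanpy 1.11.5, Biopython 1.88 and Matplotlib 3.10.9 were used. RefSeq promoters matched 2 of the 4 genes (Ccl8 and Ccl12).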

Additional observations from a re-analysis of the deposited data

How the results depend on the processing

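Levels were sensitive to which cells and libraries entered. In mast-like cells, Ccl2 (2780 CPM) became 3209 CPM under the stricter gate, 3172 CPM without cells holding markers of another lineage, 2384 CPM as a library median and 2504 to 2930 CPM with each library left out in turn. Ccl7 (6374 CPM) became 7293, 7569, 6985 and 5554 to 6910 CPM in the same order, and 6187 CPM in Leiden clusters. In inflammatory macrophage-like cells, Ccl8 (679 CPM) became 901, 605, 503 and 450 to 870 CPM in that order, and 599 CPM with the largest cells capped. Ccl12 (161 CPM) became 179 CPM under the stricter gate, 124 CPM as a library median, 139 CPM capped and 101 to 207 CPM with each library left out. With the cells holding neutrophil and macrophage markers added, an alternative chosen after seeing the data, Ccl8 was 402 CPM and Ccl12 103.9 CPM. Library 1 gave the lowest of the leave-one-out values for all 4 genes. The share of macrophage-like cells with any ligand (71.6%) was 57.9% after thinning and 59.7% at 2 UMIs or more. The median pair ratio (1.43) was 1.68 after thinning, 1.71 at 2 UMIs or more and 1.30 within the Lyve1 class. It was above 1 under every alternative run. Over all results and alternatives, 62 values moved by more than the counting interval of the main value (for the pair ratio, its range over libraries) and 39 did not. The cause of these shifts was not tested, apart from the thinner counts of the thinned and 2-UMI settings.

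No cluster was named inflammatory macrophage, so the cluster alternative gave no value for Ccl8 and Ccl12. The cluster with 82.8% of the inflammatory macrophage-like cells had 225 CPM of Ccl8 and 119 CPM of Ccl12, and clusters named Lyve1 resident macrophage had 277 and 1644 CPM of Ccl8, so inflammatory cells were not the highest Ccl8 class there. No paired analysis was possible because the cell names give library numbers that no source ties to the numbered samples. Shares of positive cells depend on depth, and gene levels of 3 counts or fewer were treated as a floor.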

Other observations

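A Leiden cluster of 142 cells, computed without the 4 ligands and named Lyve1 resident macrophage by its markers, had 1644 CPM of Ccl8 against 331 CPM of Ccl2, 284 CPM of Ccl7 and 112 CPM of Ccl12. Its leading genes included Vsig4, Cbr2, Folr2, Gas6, Fxyd2 and Pf4, so that markers of the Lyve1 and the Fxyd2 lists led it together. The cluster was picked out after its values were seen.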
